A study of Mus musculus with 11 samples.

Results

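Acyl-CoA thioesterases cut the thioester bond of fatty acyl-CoA and so return free fatty acid and coenzyme A. The family was examined in hepatocytes that lacked X-box binding protein 1 (XBP1), and its 10 members (Acot1, Acot2, Acot3, Acot4, Acot7, Acot8, Acot9, Acot11, Acot12 and Acot13) were taken by gene name from the 54232 genes counted in each library. The family was selected on the genotype and diet differences that earlier results of these libraries showed, with no threshold on a value. All 10 passed the filter on low counts that left 13303 genes to test. Across both diets, 2 of the 10 members were called higher in Xbp1 LKO hepatocytes, against 5.25% of all genes tested. Acot2, the mitochondrial matrix enzyme of the family, rose 3.38-fold. Acot9, another mitochondrial member, rose 1.83-fold, but its genotypes overlapped and its call did not hold in every fit that left out a library. Acot11 was 2.00-fold higher after the HFS diet but missed the threshold. It did not overlap between the diets, a separation that 0.774% of genes tested showed in that direction. Between libraries Acot3 varied 24.6-fold, Acot2 8.17-fold, Acot1 5.39-fold, Acot11 4.99-fold and Acot4 4.02-fold, whereas Acot7, Acot12 and Acot13 varied no more than 1.41-fold.

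Thioesterases work in opposition to acyl-CoA synthetases, and the balance of both sets how much acyl-CoA a compartment holds for oxidation, lipid synthesis or signalling. The family has a cytosolic, a mitochondrial and a peroxisomal arm, and several of its type I genes are textbook targets of PPARα, the nuclear receptor that raises fatty acid oxidation in fasted liver. XBP1 is the transcription factor that the endoplasmic reticulum stress sensor IRE1α switches on by splicing its mRNA, and in liver it is known for driving both protein secretion and lipid synthesis genes.

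The libraries came from hepatocytes purified from adult male C57BL/6 mice after a short fast. Xbp1 LKO mice carried the floxed Xbp1 alleles together with Cre under the albumin promoter, which is active in hepatocytes, and the Xbp1 fl/fl controls carried the floxed alleles. Mice ate chow or the HFS diet, a western diet with fructose and glucose in the drinking water, for up to 6 weeks. There were 3 chow-fed fl/fl libraries, 2 chow-fed LKO libraries, 3 HFS-fed fl/fl libraries and 3 HFS-fed LKO libraries. Each chow library was 1 mouse and each HFS library was a pool of 2 mice, so diet and pooling cannot be told apart. Levels are given as CPM, the count of a gene scaled to the size of its library, after TMM scaling.

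The libraries held 19191032 to 23888401 counts. Counts of Xbp1, taken over the whole gene and not over its deleted exon, were at 194 to 301 CPM in fl/fl and 95.7 to 135 CPM in LKO libraries, with no overlap. Hepatocyte markers far exceeded the markers of other liver cells in every library. Their 8 genes summed to 100561 to 162211 CPM in fl/fl and 34502 to 80743 CPM in LKO libraries. Averaged over diets, 1 of the 8 was called higher and 5 lower in LKO hepatocytes, against 11.9% of all genes called. The chow-fed LKO library 2 stood apart, with the lowest hepatocyte sum and with albumin at 1.67% of its counts against 3.33% to 10.9% in the other libraries. Values without it are given beside several of the results it moved. In such bulk samples fewer cells of a type and less RNA per cell cannot be told apart. TMM factors ran from 0.878 to 0.938 in fl/fl and from 1.05 to 1.19 in LKO libraries. Scaling by library totals instead moved the median of all genes to 0.30 on the log2 scale in the genotype comparison averaged over diets, and changes are given relative to the TMM scale, on which that median was 0.01.

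Type I members form a cluster on chromosome 12, where Acot2, Acot1, Acot4 and Acot3 are followed by Acot5 and Acot6 on the plus strand within 123 kb. In GRCm38 coordinates Acot2 spans chr12:83987861-83993873, Acot1 chr12:84009490-84018371, Acot4 chr12:84038379-84048601 and Acot3 chr12:84052144-84060402. Elsewhere lie Acot9 at chrX:155262443-155297654, Acot11 at chr4:106744555-106804998, Acot7 at chr4:152178134-152271855, Acot8 at chr2:164792765-164804882, Acot12 at chr13:91741512-91786148 and Acot13 at chr13:24817948-24831540. The clustered genes are similar enough for short reads to matter. Of the stretches of 50 bases in Acot2 transcripts, the length of the reads, 27.7% occur in another gene, and the longest run that Acot2 and Acot1 share is 273 bases. The shared part was 19.2% in Acot1, 21.3% in Acot3, 13.4% in Acot4 and 15.2% in Acot9, whose near copy is Acot10, and none in Acot7 and Acot13. These parts count every other annotated gene, on either strand, and not only the cluster. In Acot4, 689 of the 888 shared stretches lay in the antisense gene 4732463B04Rik. In Acot3, 380 of 736 lay in Gm49366, which had 0 counts in every library. Acot11 shared 17.3%, with Fam151a on the opposite strand. Values of the clustered genes and of Acot9 are uncertain to that extent.

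Promoter windows of 250 bases before the start of transcription are shown for the members on which the results turn and for the neighbours of Acot2, to set side by side genes that share a locus. The sequences are from RefSeq on GRCm38.p6, 5′ to 3′ on the strand of the gene, and a window was held for 9 of the 10 members. Capitals mark the letters of the motifs searched on both strands. These were DR1 (the direct repeat read by PPARα with RXR), AGGTCA (the single nuclear receptor site), TGATGNAA (read by ATF4 with C/EBP partners) and CCACGT (the core of XBP1 and ATF6 sites). Acot3 and Acot11 have 2 annotated starts each, and the window of Acot11 shown here is that of its downstream start.
Acot2 chr12:83987611-83987860 (plus strand): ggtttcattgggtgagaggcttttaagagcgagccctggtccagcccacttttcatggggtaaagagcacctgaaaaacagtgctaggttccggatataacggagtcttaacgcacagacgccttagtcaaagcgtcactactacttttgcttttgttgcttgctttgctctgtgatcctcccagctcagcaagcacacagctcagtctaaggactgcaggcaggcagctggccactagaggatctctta
Acot1 chr12:84009252-84009501 (plus strand): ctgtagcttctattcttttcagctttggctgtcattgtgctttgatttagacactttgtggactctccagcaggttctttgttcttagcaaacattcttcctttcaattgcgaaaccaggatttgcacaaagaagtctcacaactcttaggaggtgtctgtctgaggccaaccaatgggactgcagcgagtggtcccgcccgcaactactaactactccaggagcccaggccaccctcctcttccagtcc
Acot4 chr12:84038129-84038378 (plus strand): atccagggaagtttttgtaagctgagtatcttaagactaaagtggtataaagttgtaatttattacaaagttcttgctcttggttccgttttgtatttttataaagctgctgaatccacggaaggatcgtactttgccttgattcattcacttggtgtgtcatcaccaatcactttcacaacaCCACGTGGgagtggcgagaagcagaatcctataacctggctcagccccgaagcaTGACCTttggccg
Acot3 chr12:84051894-84052143 (plus strand): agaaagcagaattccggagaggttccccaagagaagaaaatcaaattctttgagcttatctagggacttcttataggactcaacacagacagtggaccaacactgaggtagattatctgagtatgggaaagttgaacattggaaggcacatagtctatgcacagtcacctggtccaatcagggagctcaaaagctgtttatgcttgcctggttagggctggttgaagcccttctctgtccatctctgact
Acot9 chrX:155262193-155262442 (plus strand): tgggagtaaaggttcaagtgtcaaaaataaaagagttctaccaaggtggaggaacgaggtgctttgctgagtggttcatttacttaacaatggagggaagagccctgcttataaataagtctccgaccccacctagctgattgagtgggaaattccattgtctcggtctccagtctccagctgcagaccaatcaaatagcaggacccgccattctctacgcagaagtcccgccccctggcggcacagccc
Acot11 chr4:106799832-106800081 (minus strand): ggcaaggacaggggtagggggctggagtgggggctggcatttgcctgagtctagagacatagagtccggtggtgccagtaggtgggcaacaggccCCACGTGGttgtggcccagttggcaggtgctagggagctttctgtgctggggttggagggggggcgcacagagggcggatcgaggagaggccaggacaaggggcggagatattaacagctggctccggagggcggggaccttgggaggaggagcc

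The Acot4 window held CCACGTGG at bases -67 to -60, where the CCACGT letters read on both strands and overlap, and AGGTCA on the minus strand at -13 to -8. The downstream Acot11 window held CCACGTGG at -155 to -148. Windows of Acot2, Acot1, Acot3 and Acot9 held none of the motifs searched, and neither did those of Acot7, Acot8 and the upstream start of Acot11. The Acot12 window held AGGTCA on the minus strand at -110 to -105. CCACGT occurred in 6.91% of 32851 windows of all genes, AGGTCA in 14.0%, TGATGNAA in 3.45% and the direct repeat in 0.338%. A match describes letters and is no evidence of binding.

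Levels across the family were compared per length, as CPM per kb of exon. In chow-fed fl/fl hepatocytes, Acot13 (also called Them2, which binds phosphatidylcholine transfer protein) had a level of 66.7 CPM per kb and Acot12, the cytosolic acetyl-CoA hydrolase of liver, 62.2 CPM per kb. A gap followed, since Acot7 at 12.02 CPM per kb did not overlap Acot12. The order then ran through Acot4 at 9.84, Acot8 at 8.86, Acot1 at 4.95, Acot3 at 4.20, Acot2 at 1.81, Acot11 at 1.75 and Acot9 at 0.848 CPM per kb. In that order only Acot12 and Acot7 were neighbours whose 3 libraries did not overlap. Acot9 was the member with the fewest reads, at 29 to 123 counts per library, and Acot12 had the most, at 3317 to 6225.

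**Figure D1:**
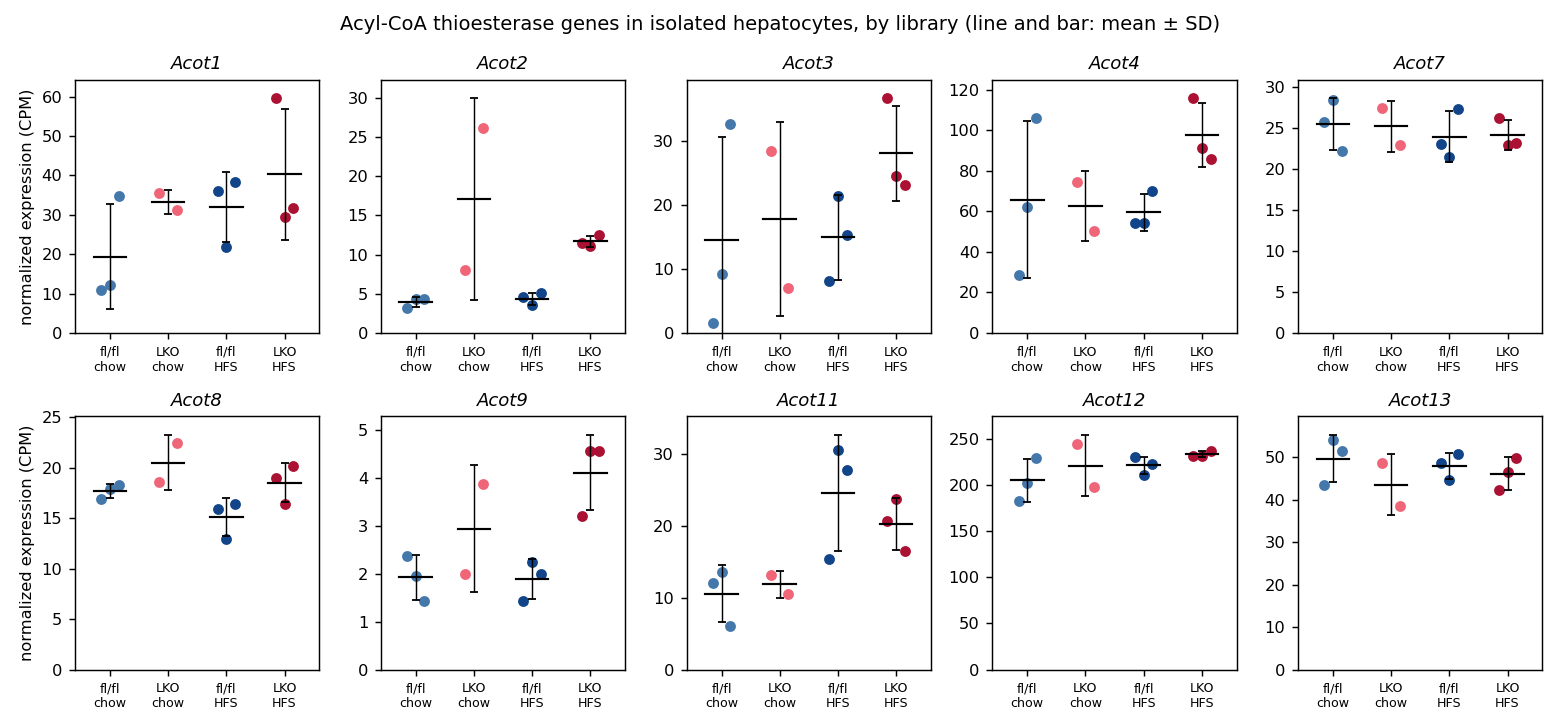
CPM of each thioesterase gene (vertical axes, from 0, a separate scale per gene) in the 11 libraries by genotype and diet. Points are libraries, lines are group means and bars are SD (cut at 0). Acot2 lies higher in every LKO library than in every fl/fl library, and Acot11 lies higher in every HFS library than in every chow library.

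The comparison of genotypes asked what loss of hepatocyte XBP1 does to the family. On chow 1 of the 10 members was called at an adjusted p under 0.05, against 4.75% of all genes tested. With HFS feeding it was 1 of 10 against 4.08%. Averaged over diets it was 2 of 10 against 11.9%, both of them higher in LKO hepatocytes, against 5.25% of all genes called higher. The median log2 fold change of the 10 members was 0.19 on chow, 0.31 on the HFS diet and 0.29 averaged, beside 0.00, 0.01 and 0.01 for all genes. Because these same differences stood behind the selection, the p-values, which come from the fit over all genes, are not independent evidence.

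Acot2 carried the clearest genotype difference in the family. It stood at 3.20, 4.39 and 4.33 CPM in the chow-fed fl/fl libraries and at 7.98 and 26.1 CPM in the chow-fed LKO libraries. On the HFS diet it stood at 4.57, 3.51 and 5.04 CPM in fl/fl and at 11.5, 11.1 and 12.5 CPM in LKO libraries. Every LKO library lay above every fl/fl library, a separation that 3.19% of all genes tested showed in the same direction, and Acot2 was the only member to show it. The HFS-fed LKO libraries lay close together, and the chow-fed LKO library 2 was 3.28-fold above its group mate. The log2 fold change averaged over diets was 1.76 ± 0.26 (SE, adjusted p = 0.00133), and it stayed between 1.21 and 2.06 and called when any library was left out. The chow value of 2.10 ± 0.38 (adjusted p = 0.0108) fell to 1.00 (adjusted p = 0.104) without the chow-fed LKO library 2. The HFS value of 1.41 ± 0.35 (adjusted p = 0.0460) kept its size, between 1.28 and 1.53, and lost its call without any 1 of the 9 fl/fl or HFS-fed LKO libraries, with adjusted p up to 0.140.

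Acot9 was low in all groups and rose in LKO hepatocytes. It stood at 2.37, 1.96 and 1.44 CPM in chow-fed fl/fl and 2.01 and 3.89 CPM in chow-fed LKO libraries. After HFS feeding it stood at 1.43, 2.24 and 2.01 CPM in fl/fl and 3.22, 4.57 and 4.56 CPM in LKO libraries. The genotypes separated on the HFS diet and overlapped on chow. The log2 fold change was 0.87 ± 0.23 averaged over diets (SE, adjusted p = 0.0302), 1.12 ± 0.31 on the HFS diet (adjusted p = 0.0676) and 0.61 ± 0.34 on chow (adjusted p = 0.365). The averaged call was lost in 7 of the 11 fits that left out a library, and the value moved most, to 0.59 (adjusted p = 0.200), without the chow-fed LKO library 2. Markers of lymphoid cells and neutrophils, all 6 of which had counts, summed to 1.32 to 2.04 CPM in HFS-fed fl/fl and 1.38 to 6.56 CPM in HFS-fed LKO libraries, with Cd79a at 0 in HFS-fed fl/fl. The 10 macrophage markers summed to 31.3 to 43.9 and 43.2 to 81.2 CPM in the same groups, with none at 0. On chow the lymphoid sum was 0.349 to 0.993 CPM in fl/fl and 0.939 and 1.79 CPM in LKO libraries, and the macrophage sum was 16.2 to 69.4 and 16.5 and 26.7 CPM. The part of these cells in the Acot9 difference was not tested.

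**Figure D2:**
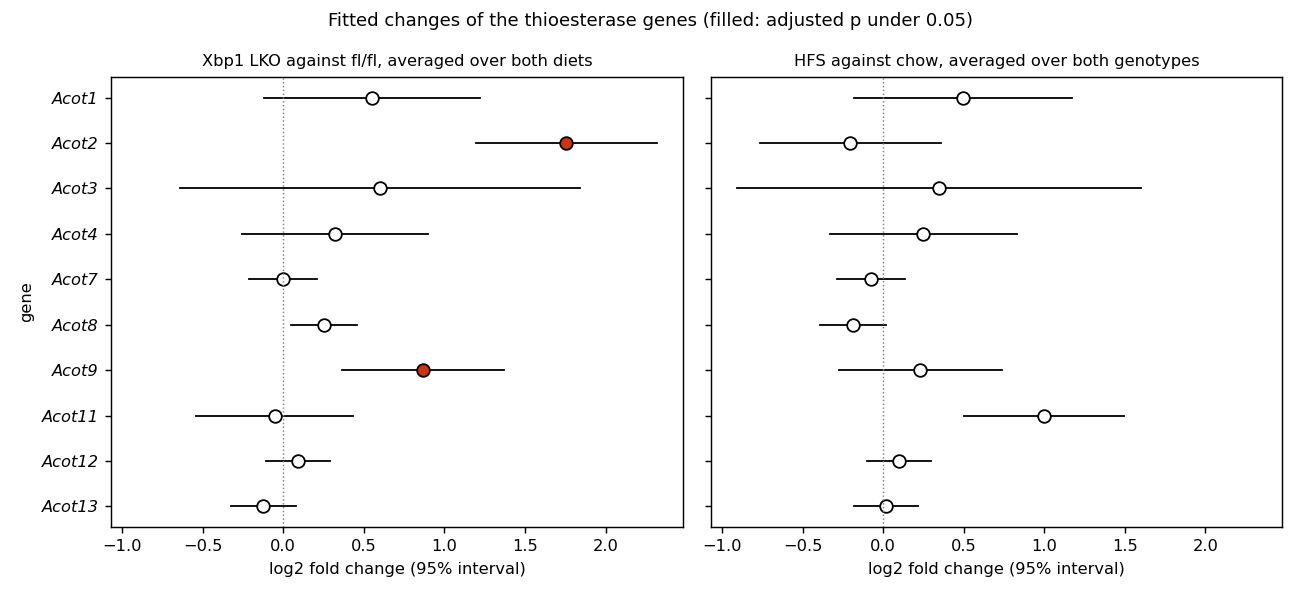
Log2 fold changes of the 10 members with 95% intervals (horizontal axes) for LKO against fl/fl averaged over diets (left) and HFS against chow averaged over genotypes (right). Filled points passed the threshold, which Acot2 and Acot9 did on the left and no member did on the right, where Acot11 has an interval of 0.50 to 1.49.

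The other cytosolic and mitochondrial members gave no genotype call. Acot1, the cytosolic long-chain acyl-CoA thioesterase, stood at 11.03, 12.3 and 34.9 CPM in chow-fed fl/fl and 35.5 and 31.1 CPM in chow-fed LKO libraries. In HFS-fed mice it stood at 35.9, 21.9 and 38.3 CPM in fl/fl and 59.5, 29.5 and 31.8 CPM in LKO libraries. The chow-fed fl/fl library 3 was level with the LKO libraries, while its 2 group mates lay well below them. Its log2 fold change averaged over diets was 0.55 ± 0.31 (adjusted p = 0.293), and without the chow-fed fl/fl library 3 it was 0.92 (adjusted p = 0.0225), with 1.51 (adjusted p = 0.0404) on chow alone.

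Acot7, an acyl-CoA hydrolase best known from brain, held between 21.5 and 28.5 CPM in all 11 libraries, and its averaged log2 fold change was 0.00, with an interval of -0.22 to 0.21. Acot12 held between 183 and 244 CPM, with a log2 fold change of 0.09 and an interval of -0.11 to 0.29. Acot13 held between 38.4 and 54.0 CPM, with a log2 fold change of -0.12 and an interval of -0.32 to 0.08. The direction of Acot7 and Acot13, and of Acot11 at -0.05, turned when library totals set the scale, to 0.29, 0.17 and 0.24.

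The peroxisomal members were Acot3, Acot4 and Acot8. Acot8, a broad peroxisomal thioesterase that also takes bile acid-CoA, stood at 16.9 to 18.3 CPM in chow-fed fl/fl, 18.6 and 22.4 CPM in chow-fed LKO, 12.98 to 16.4 CPM in HFS-fed fl/fl and 16.4 to 20.1 CPM in HFS-fed LKO libraries. Its log2 fold change averaged over diets was 0.25 ± 0.09 (adjusted p = 0.114). Acot8 shares 9.77% of its stretches with Snx21 on the opposite strand, which had 206 to 321 counts and an averaged log2 fold change of -0.0021.

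Acot4, which takes succinyl-CoA, stood at 28.8, 62.2 and 106 CPM in chow-fed fl/fl and 74.7 and 50.3 CPM in chow-fed LKO libraries. With HFS feeding it stood at 54.3, 54.4 and 69.8 CPM in fl/fl and 116, 91.3 and 86.0 CPM in LKO libraries. The genotypes did not overlap on the HFS diet, and on chow the fl/fl libraries alone spanned 3.68-fold, wider than the LKO libraries. The log2 fold change was 0.71 ± 0.35 on the HFS diet (adjusted p = 0.333), -0.07 ± 0.39 on chow (adjusted p = 0.948) and 0.32 ± 0.26 averaged (adjusted p = 0.504).

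Acot3, its long-chain neighbour, stood at 1.49, 9.25 and 32.6 CPM in chow-fed fl/fl and 28.5 and 7.03 CPM in chow-fed LKO libraries. In HFS-fed mice it stood at 8.10, 21.4 and 15.3 CPM in fl/fl and 36.6, 24.5 and 23.1 CPM in LKO libraries. The 3 chow-fed fl/fl mice differed 21.9-fold, the widest range of any member within a group. The averaged log2 fold change was 0.60 ± 0.57 (adjusted p = 0.572).

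Groups that did not overlap were counted as well. On the HFS diet Acot2, Acot3, Acot4, Acot9 and Acot12 were higher in every LKO than in every fl/fl library, 5 of 10 members against 13.6% of all genes tested. On chow these were Acot2 and Acot8, 2 of 10 against 15.4%. The separation of Acot12 on the HFS diet came with a log2 fold change of 0.08 (edgeR, adjusted p = 0.818). Acot2, Acot3 and Acot4 share sequence, and the family was selected on such differences, so these counts are not independent evidence either.

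Within the cluster the genes contributed unequally. Acot4 supplied 42.7% to 69.5% of the counts of the 6 genes, Acot1 13.8% to 34.7% and Acot3 3.24% to 20.7%. Acot2 supplied 22.1% in the chow-fed LKO library 2 and 2.42% to 7.98% in the other 10 libraries. The whole cluster ranged from 46.0 CPM in the chow-fed fl/fl library 1 to 225 CPM in the HFS-fed LKO library 1. In the library with the highest Acot2 level the cluster sum, 118 CPM, lay inside the range of the other libraries.

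**Figure D3:**
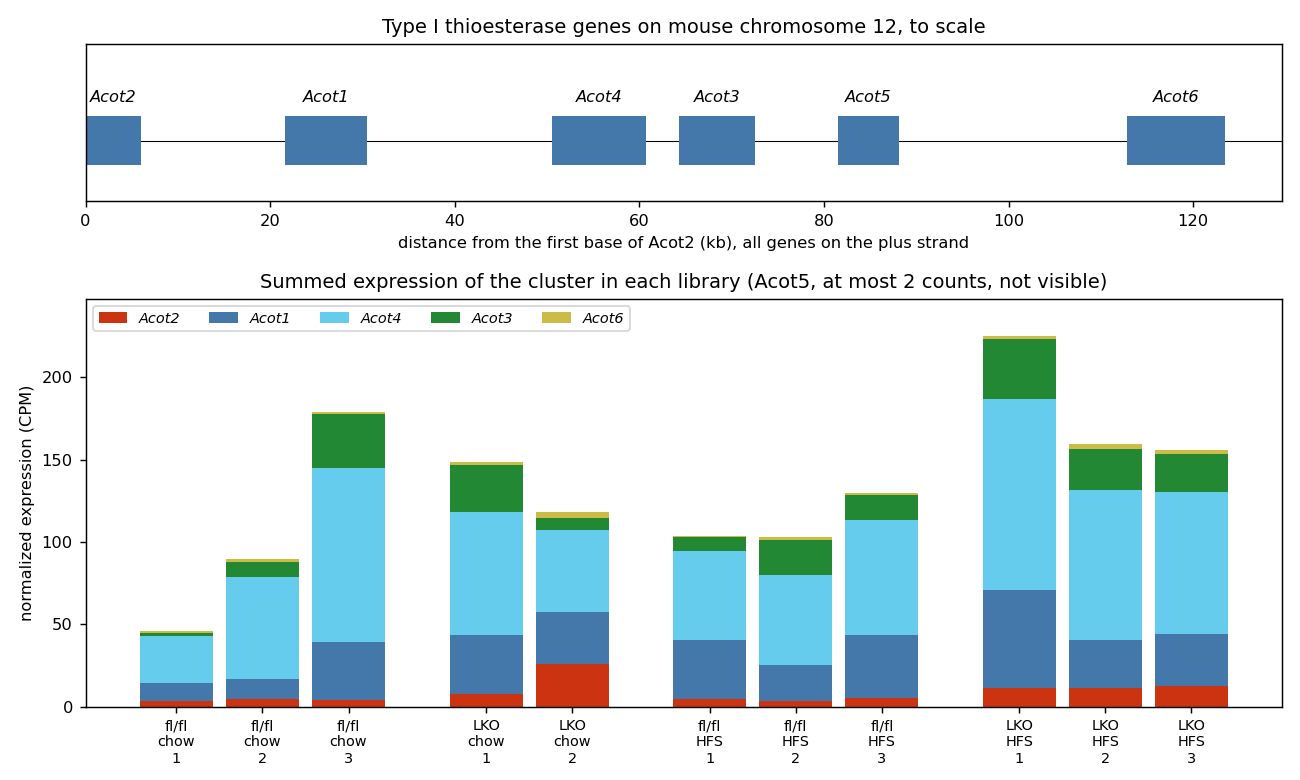
Top, the 6 type I genes of chromosome 12 by distance in kb from the first base of Acot2, to scale. Bottom, their CPM stacked from 0 in each library, where Acot4 is the largest part throughout and the Acot2 part is widest in the chow-fed LKO library 2.

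The diet comparison asked how the family answers to HFS feeding. No member was called, against 1.1% of all genes averaged over genotypes, 0.428% in fl/fl and 0.0601% in LKO hepatocytes by edgeR. At an unadjusted p under 0.05 the averaged comparison held Acot11 alone. DESeq2, run on the same counts, called 1 member averaged over genotypes, 1 in fl/fl and 0 in LKO hepatocytes. Of all genes it called 3.7%, 1.2% and 1.54% in these comparisons.

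Acot11, a long-chain acyl-CoA thioesterase first known as brown fat inducible, was the member that differed most by diet. In fl/fl hepatocytes it stood at 12.1, 13.6 and 6.12 CPM on chow and 15.4, 30.5 and 27.8 CPM on the HFS diet. In LKO hepatocytes it stood at 13.1 and 10.6 CPM on chow and 20.7, 23.7 and 16.5 CPM on the HFS diet. All 6 HFS libraries lay above all 5 chow libraries, a separation that 0.774% of genes tested showed in that direction. The log2 fold change averaged over genotypes was 1.00 ± 0.23 (adjusted p = 0.0655), between 0.86 and 1.12 when any library was left out. Of the 11 fits that left out a library, only that without the HFS-fed fl/fl library 1 passed the threshold (1.12, adjusted p = 0.0381). With all libraries DESeq2 called Acot11 (adjusted p = 0.00142). By genotype the log2 fold change was 1.22 ± 0.30 in fl/fl (adjusted p = 0.174) and 0.78 ± 0.34 in LKO hepatocytes (adjusted p = 0.366). Markers of other liver cells also differed in level between the diets, with 1 endothelial and 1 stellate cell marker called higher on the HFS diet. The 9 endothelial markers, none at 0, summed to 39.6 to 94.6 CPM in fl/fl and 24.2 and 30.8 CPM in LKO libraries on chow, and to 76.7 to 130 and 63.3 to 97.0 CPM on the HFS diet, and all 9 had a positive averaged log2 fold change with a median of 1.126. The 8 stellate cell markers summed to 10.98 to 32.8 and 7.04 and 7.69 CPM on chow and to 18.6 to 31.3 and 22.9 to 48.6 CPM on the HFS diet, with Acta2 at 0 in both fl/fl groups, and the 6 that were tested had a median of 1.41. Their part in the Acot11 difference was not tested.

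The remaining members had averaged diet log2 fold changes from -0.20 (Acot2) to 0.50 (Acot1). In fl/fl hepatocytes Acot8 was lower in every HFS than in every chow library, 1 of 10 members against 7.34% of genes, and Acot11 was higher, 1 of 10 against 6.33%. In LKO hepatocytes Acot4 and Acot11 were higher in every HFS library, 2 of 10 against 16.7%. The value of Acot2 turned to 0.35 without the chow-fed LKO library 2.

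The interaction tested whether the genotype difference depended on diet. By edgeR 0 of 10 members and 0 of all 13303 genes (0.0%) were called, with 816 genes at an unadjusted p under 0.05, and DESeq2 called 31 genes. The lowest member p was that of Acot4 (0.166, log2 difference 0.79, interval -0.38 to 1.95), followed by Acot2 (0.206, log2 difference -0.69, interval -1.81 to 0.44). These intervals leave room for differences of the size of the genotype effects themselves.

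The 6 relatives of the members were read beside them. Acot6, the last gene of the cluster, stood at 0.946 to 1.43 CPM in chow-fed fl/fl, 1.71 and 3.41 CPM in chow-fed LKO, 0.714 to 1.93 CPM in HFS-fed fl/fl and 2.08 to 3.12 CPM in HFS-fed LKO libraries. It rose by 1.07 ± 0.29 on the log2 scale averaged over diets (adjusted p = 0.0321), and 0.78 (adjusted p = 0.200) was left without the chow-fed LKO library 2. Baat, which conjugates bile acids and shares the thioesterase fold of the type I enzymes, stood at 312 to 415 CPM in fl/fl and 266 to 289 CPM in LKO libraries. It fell by 0.36 on the log2 scale (adjusted p = 0.0172), by 0.37 (adjusted p = 0.0592) without the chow-fed LKO library 2 and by 0.07 (adjusted p = 0.549) on library totals. Them4 lay between 22.8 and 36.9 CPM with no call. Acot5, Acot10 and Them5 were at or near 0, with at most 2, 1 and 6 counts in a library.

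Members were also compared by how they moved together over the 11 libraries, with group means removed so that genotype and diet did not enter. These correlations are descriptions over libraries that share a depth, a scaling and, within the cluster, similar sequence. Acot3 and Acot4 had r = 0.94, between 0.83 and 0.99 when any library was left out. Acot1 and Acot4 had r = 0.78, which was 0.49 without the chow-fed fl/fl library 3. Acot1 and Acot2, the pair with the longest shared sequence, had r = 0.14, which ranged from 0.02 to 0.54 when any library was left out and was highest without either chow-fed LKO library, which leaves that group with 1. The peroxisome proliferation gene Pex11a had r = 0.95 with Acot1, and the pantetheinase gene Vnn1 had r = 0.82 with Acot4, which was 0.54 without the chow-fed fl/fl library 1. Acot2 went with Pdk4 at r = 0.83, and at r = 0.49 without the chow-fed LKO library 2. The lipid droplet gene Plin2 ran opposite to Acot11 at r = -0.88, between -0.92 and -0.76 when any library was left out.

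**Figure D4:**
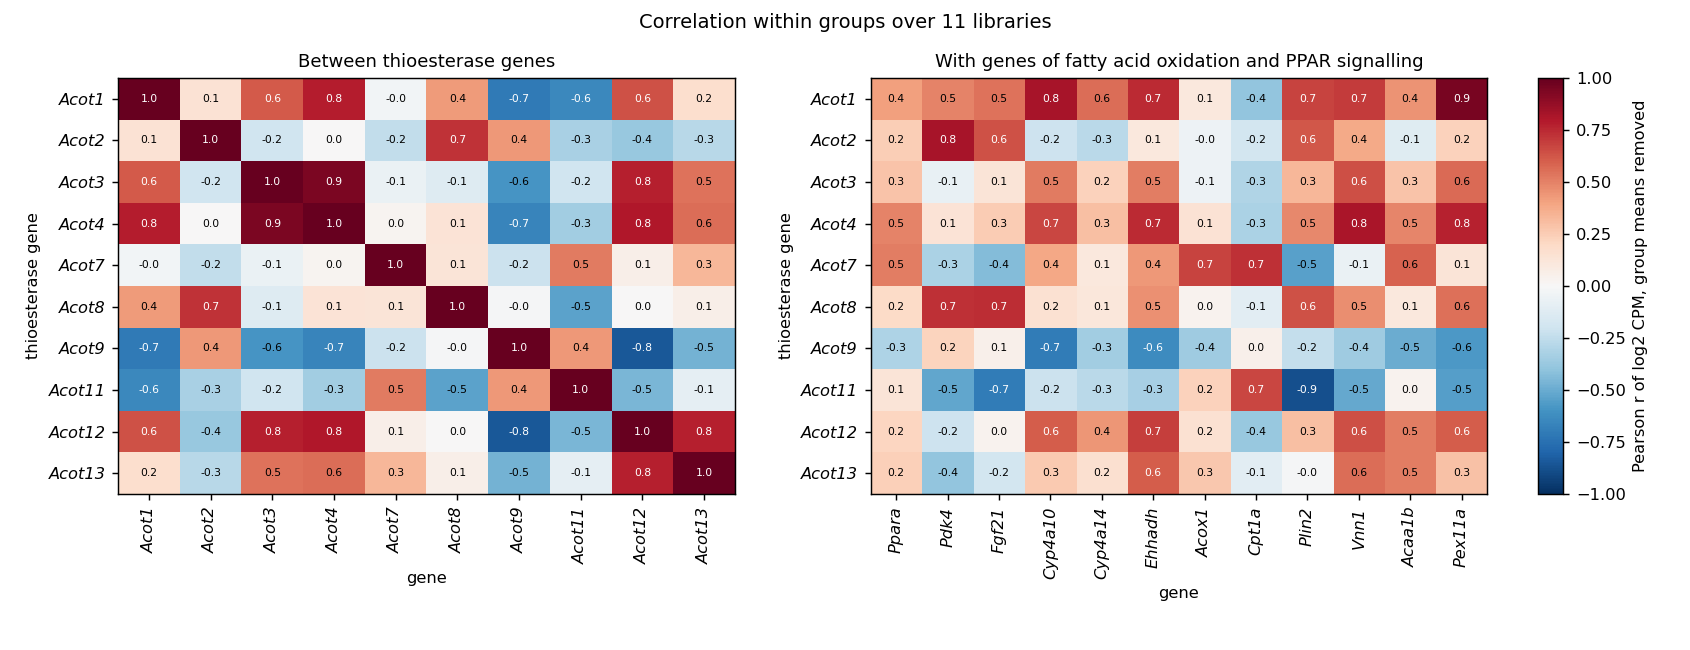
Pearson r of log2 CPM over 11 libraries after group means were removed, between the 10 members (left) and between members (rows) and genes of fatty acid oxidation and PPAR signalling (columns, right). Red is positive and blue negative. Acot3 with Acot4 (0.94) and Acot1 with Pex11a (0.95) are the highest and Acot11 with Plin2 (-0.88) is the lowest.

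With group differences kept, the genes most like Acot2 among 11129 compared were Rcc2 (r = 0.98), Zmat3 (r = 0.97) and Atf3 (r = 0.96), a stress-induced transcription factor. For Acot9 they were Tlr12 (r = 0.97), Slc1a4 (r = 0.96) and Ly6d (r = 0.96). These values hold the spread between genotypes as well as that between mice. They also hold the chow-fed LKO library 2, where Acot2 stood at 26.1 CPM against at most 12.5 CPM in any other library. The search was not repeated without that library.

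The pathway around the thioesterases was read from lists of its other genes, averaged over diets, beside 11.9% of all genes called and 5.25% called higher. In the lower direction 883 of the 13303 genes tested were called. The lists were not tested as sets. Of 17 acyl-CoA synthetase genes tested, which make the substrate of the family, 2 rose and 5 fell in LKO hepatocytes. Slc27a5, which activates bile acids and very long-chain fatty acids, fell by 1.02 on the log2 scale (adjusted p = 0.00113), Acss2, the cytosolic acetyl-CoA synthetase, fell by 1.03 (adjusted p = 0.00207), and Acsm2, a medium-chain enzyme, rose by 1.97 (adjusted p = 0.00178). These 3 calls held when any library was left out. Among 21 peroxisomal genes 1 rose and 2 fell. Slc25a17, a peroxisomal carrier of coenzyme A, fell by 0.73 and Hacl1 by 0.48, both called when any library was left out. Pex11a rose by 0.42 (adjusted p = 0.04997), a call that was lost in 9 of 11 such fits, with adjusted p up to 0.129 without the chow-fed LKO library 2. None of 18 mitochondrial beta-oxidation genes was called by edgeR at the adjusted threshold, with the smallest p for Hadhb at a log2 fold change of 0.29 (unadjusted p = 0.0209, adjusted p = 0.114), and the median of that list was 0.07.

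Of 14 PPARα targets outside those lists 4 rose and 0 fell, and each of the 4 calls was lost when some library was left out. Pdk4 rose by 2.45 ± 0.53 (adjusted p = 0.0118), and without the chow-fed LKO library 2 its value was 1.29 (adjusted p = 0.110). Fgf21, a fasting hormone, rose by 2.05 ± 0.51 (adjusted p = 0.0238), was lost in 6 of 11 fits and stood at 1.33 (adjusted p = 0.205) without the same library. Cyp4a31 rose by 0.88 and was lost in 7 of 11 fits (adjusted p up to 0.122). Cyp4a14, named after its value was seen as the last of the 4, rose by 1.05 and was lost in 9 of 11 fits, with 0.80 (adjusted p = 0.151) without the chow-fed LKO library 1. The median of the list was 0.23, beside 0.29 for the thioesterases and 0.01 for all genes.

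The next counts stand beside the same 11.9% of all genes called, with 883 of 13303 called lower. Of 14 genes that make, carry or break down coenzyme A, 2 fell. Vnn3 fell by 0.98 and was called in every fit, and Nudt19 fell by 0.47 and was lost in 4 of 11 fits, with -0.32 (adjusted p = 0.0963) without the chow-fed LKO library 2. Of 10 acyl-CoA and fatty acid binding genes 2 fell, Dbi by 0.54 and Fabp2 by 0.95, and without that library they stood at -0.47 (adjusted p = 0.0638) and -0.87 (adjusted p = 0.0777). Of 14 receptors and coregulators 1 rose and 2 fell. Pparg rose by 1.01 and was called in every fit. Srebf1 fell by 1.15 and Ppargc1b by 0.59, with their calls lost in 7 and 9 of 11 fits (adjusted p up to 0.143 and 0.198).

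By diet, beside 1.1% of all genes called, 4 genes of these lists passed. Fabp2 was higher on the HFS diet by 1.43, and at 1.36 missed the threshold without the chow-fed LKO library 2 (adjusted p = 0.0625). Srebf1 was higher by 1.52 (adjusted p = 0.0494), a call lost in 8 of 11 fits, with 1.24 (adjusted p = 0.157) without the same library. Acss2 (-0.89) and Hacl1 (-0.60) were lower, and each lost its call in 4 of 11 fits (adjusted p up to 0.0748 and 0.108).

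Within single comparisons fewer of these genes passed, beside 4.75% of all genes on chow and 4.08% on the HFS diet. Among synthetases 1 rose and 4 fell in LKO hepatocytes on chow, and 1 rose and 2 fell on the HFS diet. Of the peroxisomal genes 2 fell on chow and 1 on the HFS diet, and of the coenzyme A genes 1 fell on chow. PPARα targets and receptors each had 1 gene that rose on the HFS diet, Cyp4a31 with 1.68 and Pparg with 1.35, each lost in 3 of 11 fits with adjusted p up to 0.0601 and 0.0541, and none called on chow. The diet comparison in fl/fl hepatocytes, beside 0.428% of all genes, called Acsl3 (-0.87), Acss2 (-1.22) and Hacl1 (-0.77), all lower on the HFS diet, with their calls lost in 7, 8 and 10 of 11 fits (adjusted p up to 0.144, 0.226 and 0.236). That in LKO hepatocytes called no gene of these lists, and the interaction called none either.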

How the data were processed

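The deposited files held, per library, raw read counts per gene. For their making the sources differ: the submitters' notes name cutadapt 1.13, STAR, HTSeq 0.6.1p1 and DESeq2 with mm10, whereas the study's methods name kallisto with tximport, on single-end reads of 50 bases. The library kit is given once as stranded mRNA and once as total RNA. Counts summed to 19191032 to 23888401 per library, so that low genes such as Acot9 carry counting error. Libraries were grouped by genotype and diet from the labels. Counts were analysed in R 4.3.3 with edgeR 4.0.16 (TMM scaling, filterByExpr with a minimum count of 10, quasi-likelihood test, 4 groups in 1 factor), and p-values were adjusted by Benjamini-Hochberg over 13303 genes with a threshold of 0.05. P-values set a difference against the spread between these libraries, estimated over all 4 groups. Chow libraries were 1 mouse each and HFS libraries pools of 2 mice, so that spread mixes both. Alternatives included DESeq2 1.42.0, other scalings and filters, replicate blocks and leaving out each library. Gene models were from GENCODE M21. All 10 members were named, with their relatives, of each pathway list up to 3 genes with the smallest p by genotype and by diet, averaged, and the 3 genes most like each called member. Members and lists were chosen with earlier results of these data known. The fit was tested on simulated data. Matching of replicate numbers between groups was checked by correlating deviations of same-numbered libraries, as described with the alternatives.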

Additional observations from a re-analysis of the deposited data

How the results depend on the processing

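Of the log2 fold changes recomputed under the alternatives, 1364 kept their direction and their side of the threshold, 151 lost and 48 gained a call, and 31 turned. The member counts below stand beside these shares of all genes called. On library totals these were 22.6% on chow, 11.1% on the HFS diet and 43.6% averaged over diets. With no filter they were 5.79%, 5.53% and 8.94%. The compared groups alone gave 1.88% on chow and 6.48% on the HFS diet, where DESeq2 gave 7.23%. For diet, DESeq2 gave 1.2% in fl/fl and 3.7% averaged, and no filter 1.92% in fl/fl, 2.78% in LKO and 3.86% averaged. Leaving out a library gave 2.46% to 4.53% by genotype on chow, 1.4% to 4.85% on the HFS diet and 8.36% to 13.1% averaged. By diet averaged it gave 0.441% to 2.01%. These ranges exclude the fits without a chow-fed LKO library, which keep 1 in that group, whereas the member counts below include them. Of members called by genotype on chow (1), library totals gave 3, no filter 2, the compared groups alone 0 and leaving out a library 0 to 2. On the HFS diet (1), DESeq2 gave 2, library totals 3, no filter 4, the compared groups alone 3 and leaving out a library 0 to 2. Averaged over diets (2), library totals gave 6, no filter 5 and leaving out a library 1 to 2. For diet (0), DESeq2 gave 1 and no filter 2 in fl/fl, no filter 2 in LKO, and averaged DESeq2 1, no filter 2 and leaving out a library 0 to 1.

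Several directions turned. Averaged over diets, library totals turned Acot7 to 0.29, Acot11 to 0.24, Acot13 to 0.17 and Them4 to 0.17. Acot7 became 0.0031 with a minimum mean of 1 CPM, 0.014 with no filter and -0.072 to 0.057 when a library was left out. Leaving out a library gave Acot11 -0.19 to 0.055 and Acot3 -0.071 to 1.32 by genotype averaged, and Acot13 -0.055 to 0.11 and Acot2 -0.51 to 0.35 by diet averaged. By genotype on the HFS diet it gave Acot1 -0.063 to 0.51, and on chow Acot3 -1.05 to 1.74 and Acot4 -0.43 to 0.46. Library totals turned Acot4 on chow to 0.25. The cause was not tested.

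Same-numbered libraries of different groups had a median correlation of deviations of -0.05 (-0.20 to 0.23). For differently numbered libraries it was -0.07 (-0.27 to 0.33). With 2 or 3 libraries per group these values cannot show whether the numbers pair the libraries. With the replicate block from the titles, 0 members were called on the HFS diet, against 3.1% of all genes. There Acot2 had 1.41 (adjusted p = 0.0558). In the same fit Acot4 on chow turned to 0.16 and Acot13 by diet to -0.0038. With the chow-fed LKO library 2 numbered as in its file, the block turned Acot11 by genotype to 0.035. The 632 genes called on chow became 455 with the block from the titles and 488 with the other. Correlations within groups were left out 1 library at a time after seeing the data, and 103 such values moved by less than 0.2, 7 moved by more and none turned. All genes called averaged over diets numbered 1582, and 1940 by DESeq2, 5802 on library totals and 2325 with no filter. Of the 1582, 699 were higher and 883 lower in LKO hepatocytes, against 5304 higher and 498 lower on library totals. A member at the level of Acot9, with 29 to 123 counts, has little depth for changes smaller than its SE.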

Other observations

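Transcripts that overlap the members on the opposite strand were read on their own. The antisense gene 4732463B04Rik, which shares 689 stretches of 50 bases with Acot4, had 12, 32 and 106 counts in the chow-fed fl/fl libraries, where Acot4 stood at 28.8, 62.2 and 106 CPM. It had 73 and 26 counts in chow-fed LKO libraries, against 74.7 and 50.3 CPM of Acot4. After HFS feeding the order of the libraries differed between the genes, with 42, 26 and 30 counts against 54.3, 54.4 and 69.8 CPM in fl/fl, and 69, 59 and 70 counts against 116, 91.3 and 86.0 CPM in LKO hepatocytes. Its log2 fold change by genotype averaged over diets was 0.19 ± 0.43 (edgeR, adjusted p = 0.842). Fam151a, which overlaps Acot11, had 0 counts in all 11 libraries.

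The count of Acot2 divided by that of Acot1 was 0.84 in the chow-fed LKO library 2 and 0.12 to 0.39 in the other 10 libraries. The ratio was highest among fl/fl libraries where Acot1 was low, at 0.29 and 0.36 in the chow-fed libraries 1 and 2.

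Acot12 ran opposite to Acot9 within groups (r = -0.85 over 11 libraries, -0.94 to -0.73 when any library was left out).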
